A study of Homo sapiens with 4 samples.

Results

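The 40 genes examined here build and run the replication fork, and they were scored for WDR5 and SS18::SSX binding in HSSY II cells, a human SS line that carries SS18::SSX1. They were taken as named genes out of 20033 protein-coding genes of GENCODE release 44, and all 40 were found in the annotation. The rule used their known role and no peak value, although the genes were chosen with earlier results of these data known. A gene was scored by whether a CUT&RUN peak was centred from 1000 bp upstream to 100 bp downstream of any of its start sites (the promoter), or within 2 kb of one.

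A single CUT&RUN library was made for each of 4 conditions: SS18::SSX or WDR5 as target, in cells given DMSO as the vehicle or 2.5 μM MS67, in both cases for 4 days. MS67 is a PROTAC, a bifunctional compound that brings WDR5 to a ubiquitin ligase for degradation. All 4 libraries came from the same parental line and received murine NIH-3T3 cells as spike-in. With a single line and 1 library per condition, differences could not be checked against replicates, and none was tested. Genome-wide coverage, recovered from the peak statistics, was 0.368 fragments per bp for WDR5 with DMSO and 0.168 with MS67, and 0.541 and 0.737 for SS18::SSX. The lists held 35605, 14123, 15141 and 1175 peaks in that order. Among 5 SS genes looked up beside the set, MNX1 and NTSR1 had an SS18::SSX promoter peak with DMSO and SIM2 had one within 2 kb, whereas SOX8 and TLE1 had none. With MS67, SIM2 had an SS18::SSX promoter peak (−log10 q of 7.46), and MNX1 (3.82) and SOX8 (3.57) had one within 2 kb. Peaks show binding, so they cannot check the identity of the line.

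DNA replication starts when the origin recognition complex (ORC1 to ORC6), CDC6 and CDT1 load the MCM2-7 helicase onto origins in G1, a step that geminin (GMNN) blocks later in the cycle. The kinase CDC7 with its activator DBF4, and then CDC45, GINS and MCM10, turn the loaded helicase into the active CMG helicase. Primase and the replicative polymerases, the sliding clamp PCNA and its loader RFC, the single-strand binder RPA, and the Okazaki fragment enzymes FEN1 and LIG1 copy the strands. Many of these genes are E2F targets, transcribed as cells enter S phase. WDR5 is a core subunit of the KMT2/MLL complexes, which methylate H3K4 at promoters, and SS18::SSX is carried by SWI/SNF remodeling complexes.

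Promoter sequence was taken from RefSeq on GRCh38.p14 and was found for 35 of the 40 genes (MCM4, MCM5, RPA2, RPA3 and GINS4 had none). It covered 250 bp before to 50 bp after a start site. An E2F match was any of TTTCCCGC, TTTCGCGC, TTTGCCGC or TTTGGCGC on either strand, and 15 of the 35 promoters (42.9%) held one, against 4.57% of all 15345 promoters. Of the 21 E2F matches in these promoters, 3 overlapped another motif. The letters CCAAT were present in 54.3% of the replication promoters and 36.6% of all, and the E-box CACGTG in 17.1% and 8.86%. The GC box GGGCGG was present in 71.4% against 61.8%, ETS (CCGGAAGT) in 8.57% against 6.43%, and NRF1 (GCGCATGCG) in 8.57% against 2.8%. YY1 (AAGATGGCG) was matched in 0% against 2.98%, the CHR element TTTGAA in 2.86% against 11.6%, and TATAAA in 2.86% against 9.42%. These are matches of letters on both strands, not bound sites.

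The 7 sequences printed here stand for the binding patterns described in the text, with E2F, CCAAT and E-box matches in capitals. Each runs 5′ to 3′ in the direction of the gene up to the base before its RefSeq start site, and is shown for 200 bases, or less where an exon of another gene lies closer. PCNA had a WDR5 peak with DMSO only, MCM10 in both WDR5 lists, FEN1 in both WDR5 lists and with SS18::SSX, and CDC6 and GINS2 had a promoter WDR5 peak with MS67 only. CDT1 had SS18::SSX but no WDR5 at the promoter, a call made through an inner start site, and MCM6 had neither target at the promoter.
PCNA, chr20:5119959-5120158, minus strand: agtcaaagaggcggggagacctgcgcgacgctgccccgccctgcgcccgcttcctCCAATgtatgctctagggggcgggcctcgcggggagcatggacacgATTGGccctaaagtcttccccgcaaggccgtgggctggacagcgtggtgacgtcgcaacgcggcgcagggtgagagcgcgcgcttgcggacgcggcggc
MCM10, chr10:13161358-13161557, plus strand: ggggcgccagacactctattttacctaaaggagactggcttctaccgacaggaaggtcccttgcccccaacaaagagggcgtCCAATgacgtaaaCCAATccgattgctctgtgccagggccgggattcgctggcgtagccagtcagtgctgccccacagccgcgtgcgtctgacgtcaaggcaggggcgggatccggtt
FEN1, chr11:61792803-61792910, plus strand: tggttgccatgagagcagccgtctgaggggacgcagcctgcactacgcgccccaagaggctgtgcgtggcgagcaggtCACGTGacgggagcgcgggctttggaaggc
CDC6, chr17:40287679-40287878, plus strand: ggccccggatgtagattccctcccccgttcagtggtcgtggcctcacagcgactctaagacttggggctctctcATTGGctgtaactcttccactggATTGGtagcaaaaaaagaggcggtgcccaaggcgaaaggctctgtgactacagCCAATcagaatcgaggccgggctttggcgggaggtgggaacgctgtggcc
GINS2, chr16:85688955-85689154, minus strand: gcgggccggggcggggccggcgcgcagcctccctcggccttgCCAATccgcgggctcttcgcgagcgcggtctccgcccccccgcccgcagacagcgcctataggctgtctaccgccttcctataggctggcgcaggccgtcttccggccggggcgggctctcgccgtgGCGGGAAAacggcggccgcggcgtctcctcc
CDT1, chr16:88803589-88803788, plus strand: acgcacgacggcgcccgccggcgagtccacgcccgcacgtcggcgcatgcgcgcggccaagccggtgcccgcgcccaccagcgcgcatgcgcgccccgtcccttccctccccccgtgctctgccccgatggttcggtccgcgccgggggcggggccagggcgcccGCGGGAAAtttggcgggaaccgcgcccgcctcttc
MCM6, chr2:135876444-135876643, minus strand: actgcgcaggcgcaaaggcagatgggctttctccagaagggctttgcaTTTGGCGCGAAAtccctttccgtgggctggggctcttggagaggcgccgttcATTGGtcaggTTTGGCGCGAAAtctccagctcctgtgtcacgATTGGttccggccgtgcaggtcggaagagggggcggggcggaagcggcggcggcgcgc
Each of the 2 capital runs TTTGGCGCGAAA in MCM6 holds a pair of overlapping E2F matches, 1 per strand. The PCNA sequence lay wholly inside its WDR5 peak, the FEN1 sequence overlapped the FEN1 peaks of both targets, and the last bases of the MCM10 sequence lay in the MCM10 peak found with MS67. The peaks of CDC6, GINS2, CDT1 and MCM6 lay downstream of the bases shown. E2F matches occurred in 3 of the 8 genes with a sequence and a WDR5 promoter peak in both lists, in 2 of 8 with DMSO only, in 4 of 10 with MS67 only and in 6 of 9 with neither.

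WDR5 was found at 19 of the 40 replication promoters with DMSO and again at 19 with MS67. This was 47.5% in both lists (95% CI 31.5 to 63.9, exact Clopper-Pearson, counting error only). Among all protein-coding genes, the share was 43.0% with DMSO and 27.7% with MS67. Within 2 kb of a start site, WDR5 was found at 30 genes (75%, 58.8 to 87.3) with DMSO and 31 genes (77.5%, 61.5 to 89.2) with MS67, against 62.7% and 41.8% of all genes. The number of replication genes with WDR5 was therefore nearly the same in both lists, while the number over all genes was lower with MS67. This depended on the peaks and start sites counted. With only peaks of −log10 q above 5, WDR5 was left at 13 replication promoters (32.5%) with DMSO and 3 (7.5%) with MS67, against 23.6% and 6.74% of all genes. At the stricter standard of the study these were 4 (10%) and 3 (7.5%), against 11.7% and 7.39%. With the canonical start site of each gene alone, 12 (30%) and 9 (22.5%) had WDR5 at the promoter, against 31.2% and 18.2%. A threshold on −log10 q is not equally strict in libraries of different depth. SS18::SSX was found at 9 replication promoters with DMSO (22.5%, 10.8 to 38.5), against 13.4% of all genes, and at 0 of 40 with MS67 (up to 8.81%), against 0.724%. Within 2 kb the SS18::SSX counts were 10 with DMSO (25%) and 0 with MS67, against 21.8% and 1.75% of all genes.

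**Figure D1:**
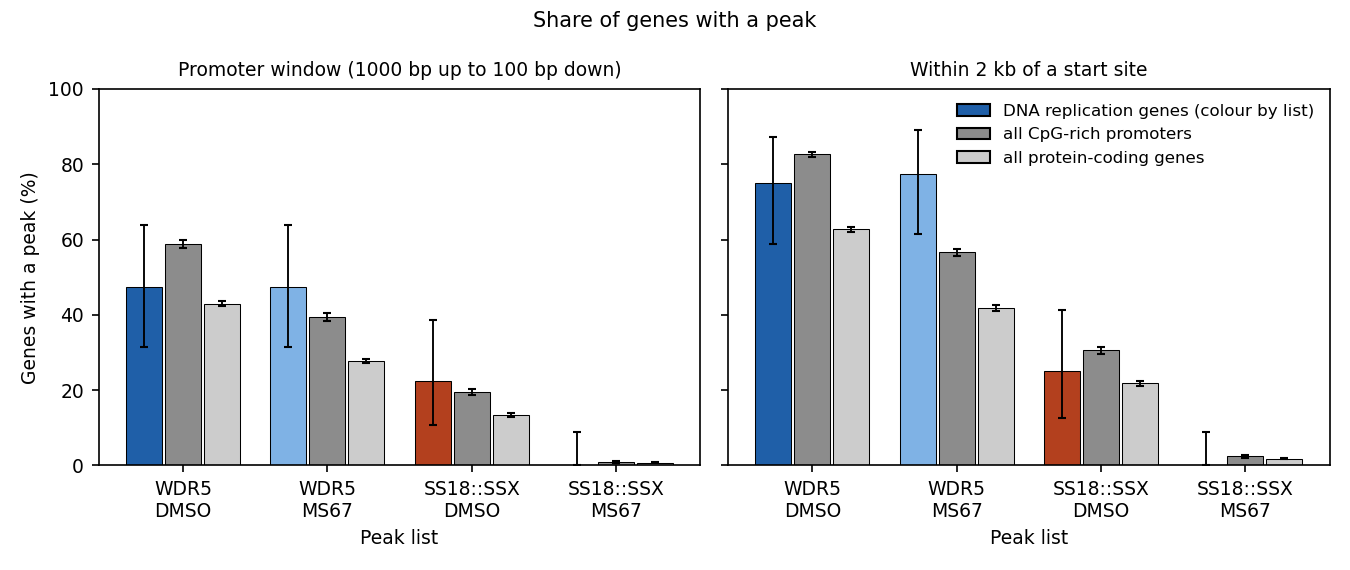
Percent of genes with a peak in each of the 4 lists, at the promoter (left) and within 2 kb of a start site (right), for the 40 DNA replication genes (coloured bars), all genes with a CpG-rich promoter (dark grey) and all protein-coding genes (light grey). Error bars are exact 95% intervals for counting error, and the replication genes stand at 47.5% in both WDR5 promoter lists while all genes stand at 43.0% and 27.7%.

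Replication promoters differed from the average promoter in sequence and layout. A promoter was called CpG-rich when its GC content was at least 50% and its ratio of observed to expected CpG at least 0.6, and 26 of the 40 (65.0%) were, against 47.34% of all genes. A start site of another protein-coding gene lay within 1000 bp in 15 of the 40 (37.5%), against 18.7%, and the replication genes had a median of 8 annotated start sites against 5. Set beside all CpG-rich promoters, the 26 CpG-rich replication promoters had WDR5 at 53.8% with DMSO (33.4 to 73.4, against 58.8%) and at 42.3% with MS67 (23.4 to 63.1, against 39.4%). On that footing these 26 promoters lay within counting error of all CpG-rich promoters in both WDR5 lists. The intervals are wide and do not show likeness, and the replication promoters that were not CpG-rich were not compared in this way. The 26 held 14 of the 19 replication promoters with WDR5 with DMSO, and 11 of the 19 with MS67. The comparison therefore speaks for those promoters and not for the whole set.

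The WDR5 lists held the same number of these promoters but not the same genes. A promoter peak was present in both lists at 9 genes, with DMSO only at 10, with MS67 only at 10 and in neither list at 11. The 9 genes with both were 47.4% of the 19 with DMSO (24.4 to 71.1), and 49.9% of all genes with a WDR5 promoter peak kept one. Of the 21 genes with none with DMSO, 10 (47.6%, 25.7 to 70.2) had one with MS67, against 10.9% of all such genes. That share was 21.5% among all CpG-rich promoters and 21.9% among all promoters shared with a coding gene. The matching replication genes numbered 5 of 12 CpG-rich (41.7%, 15.2 to 72.3) and 2 of 5 sharing (40%, 5.27 to 85.3), and both intervals held the value of all genes of that kind. Both replication shares were nonetheless above that value, and with so few genes the wide intervals cannot decide whether they differ from it. The share was also higher among replication genes that shared no promoter with a coding gene. There, 8 of 16 had a peak with MS67, with an interval of 24.7 to 75.3% that lay above the 8.69% of all such genes. Genes whose promoter was not CpG-rich were not compared in this way, and the cause of the gain was not tested. At −log10 q above 5, the count over the whole replication set was 0 of 27, against 3.52% of all genes. At the stricter standard of the study it was 2 of 36, against 5.35%. Within 2 kb, 22 of 30 genes kept a WDR5 peak (73.3%, 54.1 to 87.7, against 61.3%), and 9 of the 10 without one with DMSO had one with MS67 (90.0%, 55.5 to 99.7, against 9.0% of all genes and 26.7% of those with a CpG-rich promoter). Within 2 kb, other lists had the same trait, with 3 of 7 other pathway genes (42.9%) and 4 of 4 mitotic genes. At the promoter it was 1 of 15 other pathway genes (6.67%) and 3 of 11 mitotic genes (27.3%), against 10.9% of all genes. CDC45 was left as the gene with no WDR5 peak within 2 kb in either list, and its nearest one with DMSO was centred 31524 bp away.

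**Figure D2:**
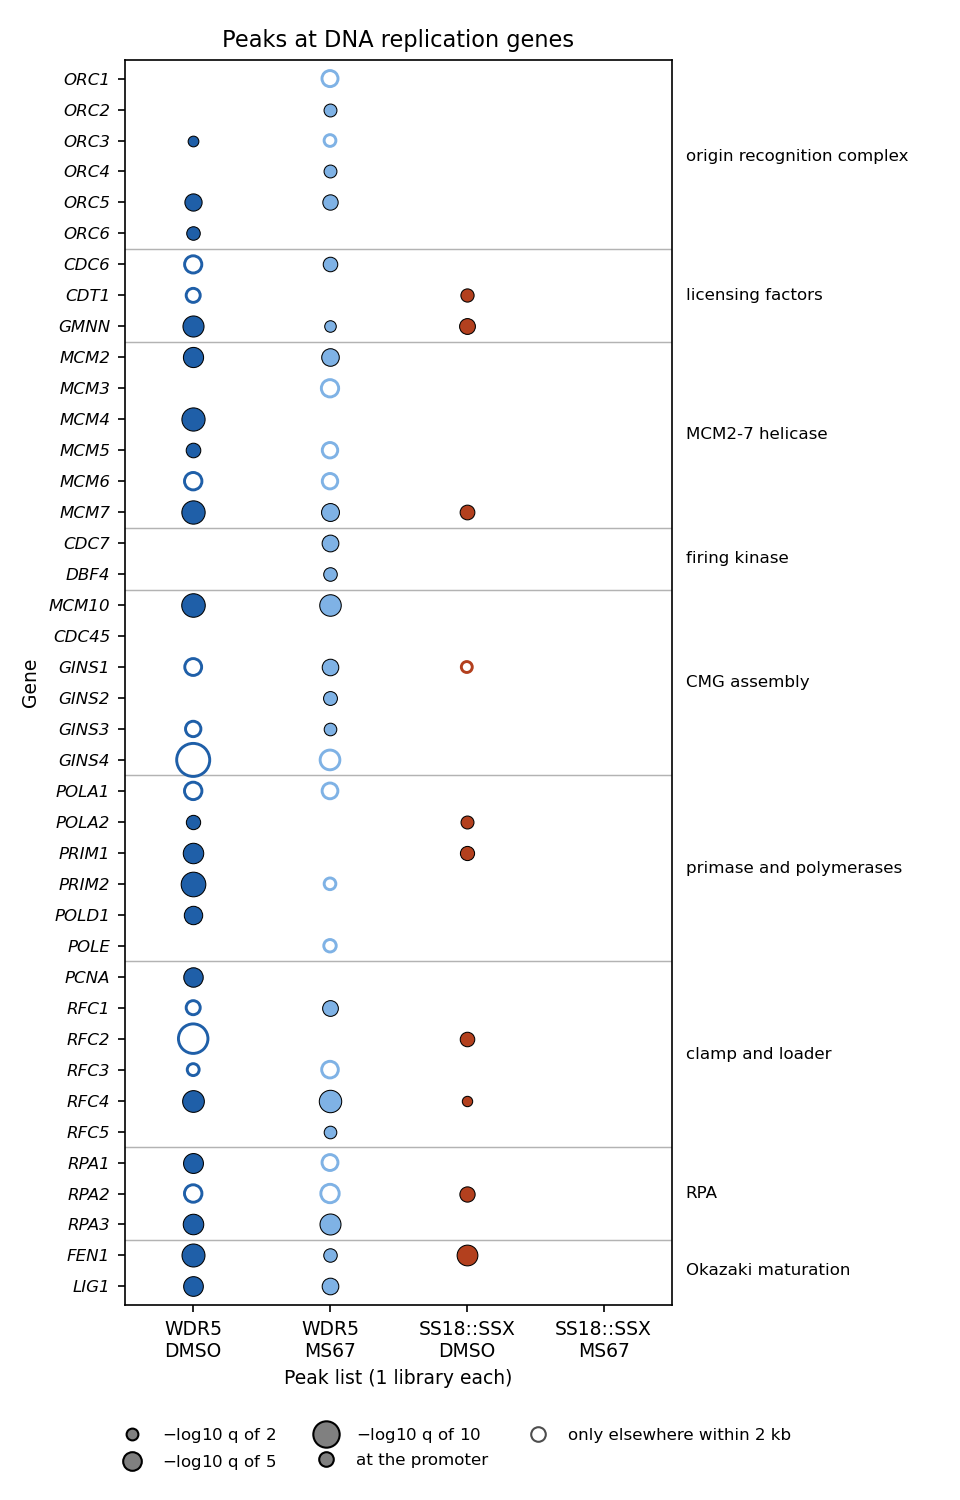
Peaks at each of the 40 genes (rows, grouped by role) in the 4 lists (columns), with the circle area in proportion to −log10 q. Filled circles are promoter peaks, open circles mark genes whose peak lay elsewhere within 2 kb, and the last column is empty because SS18::SSX had no peak at these genes with MS67.

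Among the ORC genes, which encode the origin-binding complex, 3 had a WDR5 promoter peak with DMSO and 3 with MS67, and ORC5 was the gene in both. The ORC5 peak had a −log10 q of 4.27 with DMSO and 3.39 with MS67, from a summit of 13 and 9 fragments, and no SS18::SSX. The 2 peaks lay almost on top of each other, at 104207990 to 104208368 and 104207960 to 104208369 on chromosome 7, in intergenic sequence. ORC3 (1.65) and ORC6 (2.63) had promoter peaks with DMSO only, which were the lowest −log10 q values of the set in the WDR5 DMSO promoter list. Both lay at promoters shared with another gene, RARS2 for ORC3 and VPS35 for ORC6. ORC2 (2.39) and ORC4 (2.38) had one with MS67 only, and the ORC4 peak also counted for the divergent gene MBD5. ORC1 had none at the promoter in any list, but a WDR5 peak of 3.70 with MS67 was centred 143 bp downstream of a start site.

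Of the 3 licensing factor genes, 2 had SS18::SSX at the promoter with DMSO. Both calls came through inner start sites. Relative to the canonical start, these peaks were centred 571 bp (GMNN) and 1468 bp (CDT1) downstream, outside its promoter window. GMNN, which encodes the inhibitor of CDT1, had WDR5 at a −log10 q of 6.38 with DMSO and 1.92 with MS67, and SS18::SSX at 3.61 with DMSO and none with MS67. The strongest WDR5 peak with DMSO lay in a GMNN intron near an inner start site, whereas the MS67 peak and the SS18::SSX peak both lay over a noncoding stretch of a GMNN exon. CDT1, the MCM loader, had SS18::SSX at 2.52 with DMSO, and a WDR5 peak of 2.83 with DMSO was centred 142 bp downstream of a start site, with nothing in either MS67 list. CDC6, the ATPase that recruits CDT1 and the helicase, had WDR5 in both lists, at 4.26 with DMSO and 3.03 with MS67. The CDC6 peaks overlapped, at 40287905 to 40288242 and 40288044 to 40288349 on chromosome 17, and the centre of the MS67 peak alone fell in a promoter window, at −995 bp relative to an inner start site. CDC6 was thus scored as having WDR5 with MS67 only although a DMSO peak overlapped the same place.

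The MCM2-7 helicase genes had WDR5 promoter peaks at 4 of 6 genes with DMSO and 2 with MS67. MCM7 had a −log10 q of 7.81 with DMSO and 4.61 with MS67 for WDR5, and 3.12 for SS18::SSX with DMSO. The MCM7 promoter is shared with AP4M1, which is transcribed the other way, and both WDR5 peaks lay within AP4M1. MCM2 had WDR5 at 5.85 with DMSO and 4.44 with MS67, at different start sites about its shared promoter with TPRA1. MCM4 had the tallest WDR5 promoter summit of the set with DMSO, 22 fragments and a −log10 q of 7.74, and no peak within 2 kb with MS67. MCM5 had 3.06 at the promoter with DMSO, and with MS67 a peak of 3.42 that was centred 137 bp downstream and so missed the promoter window. MCM6 had WDR5 in both lists within 2 kb (4.37 and 3.42) and MCM3 with MS67 only (4.31). None of MCM2 to MCM6 had SS18::SSX within 2 kb.

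Both firing kinase genes had WDR5 with MS67 and not with DMSO. CDC7, the catalytic subunit, had a promoter peak of 4.03 with 9 fragments at its summit, and the nearest WDR5 peak with DMSO was 96032 bp away. DBF4, the activator, had one of 2.65 with 10 fragments, and its nearest DMSO peak was 50887 bp away. Neither gene had SS18::SSX.

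Of the CMG assembly genes, MCM10 had WDR5 at the promoter in both lists and GINS1, GINS2 and GINS3 with MS67 only. The MCM10 peak had a −log10 q of 7.97 with DMSO and 6.67 with MS67, and the centres lay 376 bp upstream and 97 bp downstream of the nearest start site, so these were separate peaks. GINS1 had 3.94 at the promoter with MS67, and with DMSO a WDR5 peak of 4.09 centred 1241 bp downstream of a start site. An SS18::SSX peak of 1.71 with DMSO was centred at −1325 bp relative to another GINS1 start site. That SS18::SSX peak lay in an ABHD12 intron, counted for ABHD12 also, and was 17990 bp from the canonical GINS1 start. GINS3 had 2.28 at the promoter with MS67, from 4 fragments, and a DMSO peak of 3.41 began 104 bp from it. GINS2 had 2.77 with MS67, from 5 fragments, and no DMSO peak nearer than 8816 bp. The strongest WDR5 peak within 2 kb of any of the 40 genes with DMSO was that of GINS4, with a −log10 q of 15.7 and 24 fragments, and it was 5.60 with MS67. It was centred 157 bp downstream of a start site and so fell just outside the promoter.

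The primase and polymerase genes had WDR5 promoter peaks at 4 of 6 genes with DMSO and at 0 with MS67. PRIM2, the large primase subunit, had the highest promoter −log10 q of the set with DMSO, 8.73 from 20 fragments, and no promoter peak with MS67. An MS67 peak of 1.96 was centred 123 bp downstream of a PRIM2 start site. PRIM1, the catalytic primase subunit, had WDR5 at 6.02 and SS18::SSX at 2.89 with DMSO and neither with MS67. The 2 PRIM1 peaks shared their left edge at 56752134 on chromosome 12 and covered an exon of HSD17B6, the divergent neighbour, as well. POLA2, the second subunit of polymerase alpha, had WDR5 at 2.94 and SS18::SSX at 2.41 with DMSO and neither with MS67. POLD1, the catalytic subunit of polymerase delta, had WDR5 at 4.86 with DMSO only. POLA1 had WDR5 about 1 kb downstream of a start site in both lists (4.37 and 3.57), and POLE had it with MS67 only (2.23, 570 bp downstream).

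For the clamp and its loader, PCNA had WDR5 with DMSO only, at a −log10 q of 5.44, in a peak of 775 bp at 5119588 to 5120362 on chromosome 20 that spanned its start site. RFC4 had the highest promoter −log10 q of the set with MS67, 7.23, beside 6.79 with DMSO, and SS18::SSX of 1.54 with DMSO. Its WDR5 peaks were also the widest of the set, 957 bp and 815 bp. RFC2 had a WDR5 peak of 12.5 with DMSO, centred 768 bp downstream of a start site, together with SS18::SSX of 3.03 at the promoter and nothing with MS67. RFC1 (3.57) and RFC5 (2.28) had a promoter peak with MS67 only. RFC1 also had a DMSO peak of 2.83, 1435 bp away from that peak. RFC3 had WDR5 in the gene downstream of the promoter window in both lists (2.04 and 3.98).

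Among the RPA genes, RPA3 had WDR5 in both lists with −log10 q of 6.06 and 6.35, at an inner start site within UMAD1. RPA1 had 5.70 at the promoter with DMSO, and 3.65 with MS67 centred 120 bp downstream of a start site. RPA2 had SS18::SSX of 3.35 at the promoter with DMSO, and WDR5 within 2 kb in both lists (4.38 and 4.86). Both Okazaki genes kept WDR5 at the promoter. FEN1, the flap endonuclease, had WDR5 at 7.60 with DMSO and 2.62 with MS67, and SS18::SSX at 6.20 with DMSO and none with MS67. The FEN1 peaks overlapped one another at 61792486 to 61792846, 61792456 to 61793121 and 61792660 to 61792846 on chromosome 11, over an exon of the divergent gene TMEM258, and they counted for FADS2 also. LIG1, the ligase that seals Okazaki fragments, had WDR5 at 5.58 and 3.98 and no SS18::SSX.

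All 9 SS18::SSX promoter peaks were absent with MS67 (0%, up to 33.6%), against 4.1% of genes that kept one in the whole annotation. Their −log10 q had a median of 3.03 against 3.40 over all genes with one, and FEN1 was the only gene above 5. Their summits were 6 to 11 fragments. WDR5 was at the same promoter with DMSO in 6 of the 9 (GMNN, MCM7, POLA2, PRIM1, RFC4 and FEN1), or 66.7%, against 69.7% of all genes with SS18::SSX. The 6 genes were 15% of the 40 (5.71 to 29.8), against 9.34% of all genes with both targets. Of these 6 genes, 4 kept WDR5 with MS67, and POLA2 and PRIM1 did not.

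The strongest WDR5 promoter peaks had a median −log10 q of 5.85 over the 19 genes with DMSO, against 5.30 for all genes with one, and 3.39 against 3.77 with MS67. A −log10 q depends on depth, so values of one gene in lists of different coverage are set side by side here and not ranked. When all genes with a WDR5 promoter peak with DMSO were split into 5 equal groups by −log10 q, the share that kept one with MS67 was 34.8% in the weakest and 66.1% in the strongest group. The 4 replication genes in the weakest group (MCM5, ORC3, ORC6 and POLA2) kept 0. In the next groups 1 of 1, 3 of 7 and 5 of 6 kept one, against 43.2%, 50.1% and 55.5% of all genes in those groups. PRIM2, the gene in the strongest group, did not.

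To set summit heights of libraries of different depth side by side, each was divided by the genome-wide coverage of its library, with no spike-in scaling. Such heights cannot show an overall gain or loss of binding, because that division removes it. With spike-in scaling, the paper reported decreased overall WDR5 binding in MS67-treated HSSY II cells. Over the 9 genes with WDR5 in both lists, the height had a median of 43.5 times coverage with DMSO and 59.4 with MS67. The ratio of MS67 to DMSO had a median of 1.28, and it was 1.31 over the 4299 such genes in the annotation. It was above 1 for 8 of the 9 genes and for 76.6% of all. RFC4 had the highest ratio, 1.89 (40.8 and 77.2 times coverage), followed by RPA3 at 1.77 (43.5 and 77.2). GMNN had the lowest, 0.898 (46.3 and 41.5). A gene had to be called in both lists to enter the ratio, and at GMNN, MCM2, MCM10 and LIG1 the strongest peaks of the lists did not overlap, so those ratios compare separate sites. At the other 5 genes (ORC5, MCM7, RFC4, RPA3 and FEN1) they overlapped, and the ratio had a median of 1.51 (1.16 to 1.89), against 1.28 over 2917 such genes in all.

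**Figure D3:**
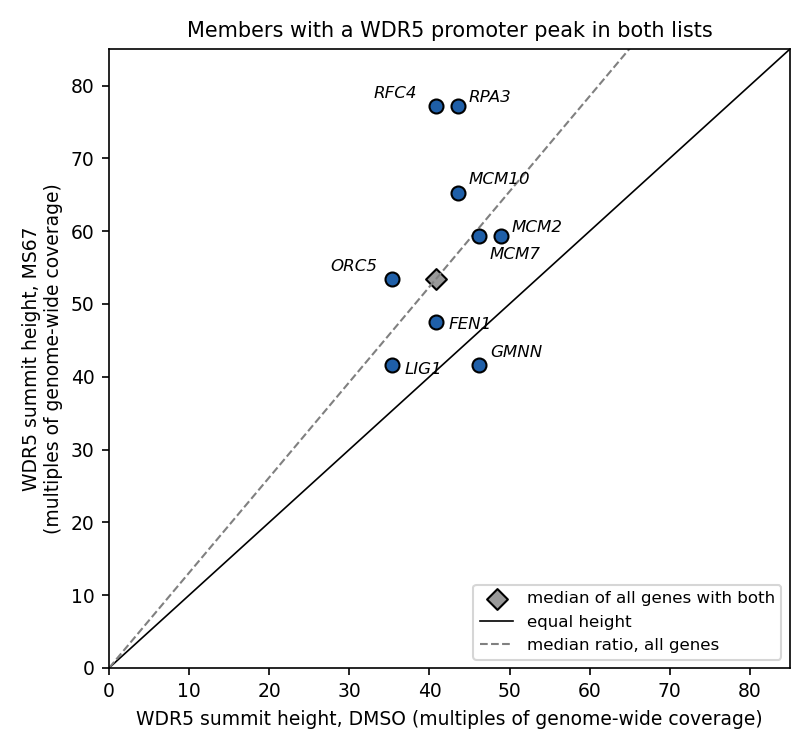
Summit height of the strongest WDR5 promoter peak with DMSO (x axis) and MS67 (y axis), each in multiples of the genome-wide coverage of its library, for the 9 replication genes with a peak in both lists. The solid line marks equal heights and the dashed line the median ratio of all genes (1.31, diamond at their medians), and GMNN, whose peaks lay at separate sites, is the gene below the solid line. Heights were not scaled to the spike-in and do not show an overall gain or loss of binding.

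The 10 genes with a WDR5 promoter peak with MS67 only had summits of 4 to 10 fragments (median 6), against a median of 8 for all 1251 such genes. Scaled to the coverage of the DMSO library these would equal 8.73 to 21.8 fragments. The scaling cannot show whether a peak would be called with DMSO, because only summits that passed the cut-off with MS67 enter it. A DMSO peak overlapped the MS67 peak at CDC6 and lay within 1 kb at 3 of the 10 genes in all (CDC6, GINS3 and GINS1), which compares with 50.3% of all such genes. At the other 7 (ORC2, ORC4, CDC7, DBF4, GINS2, RFC1 and RFC5), no WDR5 peak was called with DMSO within 1 kb of the MS67 peak. At the 10 genes with a promoter peak with DMSO only, 4 (ORC3, MCM5, PRIM2 and RPA1) had an MS67 peak elsewhere within 2 kb, and 6 (ORC6, MCM4, POLA2, PRIM1, POLD1 and PCNA) had none. The part of depth in these calls was not tested.

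WDR5 lay mainly downstream of the start sites of replication genes. Relative to the canonical start site, the strongest WDR5 peak within 2 kb had a median position of 365 bp downstream over 29 genes with DMSO, and 69.0% were centred more than 100 bp downstream, against 138 bp and 52.5% of all genes. The 48 other genes of the pathway were alike, with a median of 378 bp and 58.5% downstream. With MS67 the median was 231.5 bp over 30 replication genes and 80.0% were downstream, against 133 bp and 54.1% of all genes. It was 156.5 bp with 62.5% downstream over 32 other pathway genes, and 223.5 bp with 61.1% over 18 mitotic genes. Without regard to side, the distance had a median of 745 bp with DMSO and 264.5 bp with MS67, against 579 bp and 363 bp for all genes. Of the 21 genes measured in both lists, the MS67 peak was the closer one in 14 (66.7%), against 65.0% of all such genes. SS18::SSX peaks had a median position of 158 bp upstream over 9 genes. The promoter window left out 11 genes with DMSO and 12 with MS67 that had WDR5 within 2 kb. With DMSO, RFC3, CDC6, CDT1 and GINS4 were centred from 125 to 157 bp downstream of their nearest start site, whereas RFC1 lay 1727 bp downstream. With MS67, RPA1, PRIM2, MCM3 and MCM5 lay from 120 to 137 bp downstream, whereas ORC3 lay at −1201 bp.

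**Figure D4:**
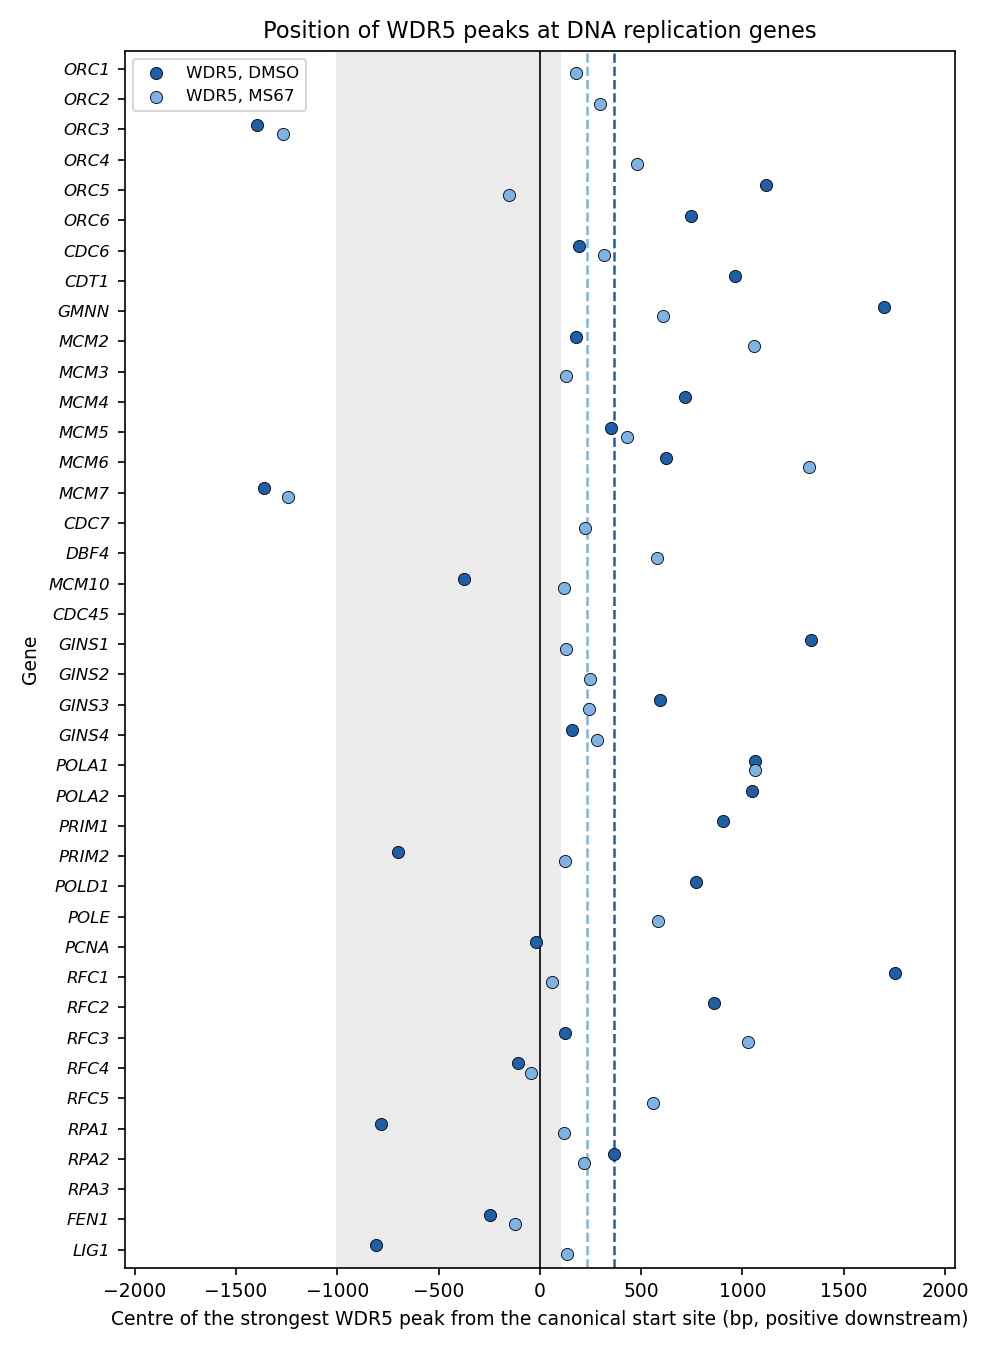
Centre of the strongest WDR5 peak within 2 kb of the canonical start site, in bp with positive values downstream, for each replication gene with DMSO (dark) and MS67 (light). The grey band is the promoter window and the dashed lines are the medians (365 bp and 231.5 bp), so most points stand to the right of the band.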

How the data were processed

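HSSY II cells given DMSO or MS67 were profiled by CUT&RUN for WDR5 and SS18::SSX, 1 library each. The authors aligned reads to hg38 with Bowtie2 (mm10 for the spike-in), removed duplicates with Picard and called peaks with MACS2 per library. The submitters' processing notes also list SAMtools 1.9, bedtools 2.28.0 and deepTools 3.3.0. MACS2 options and any control library are not given in the sources used here. The values the authors deposited per peak were its position, fold enrichment (a ratio to local background), −log10 p and −log10 q.

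The fold and Poisson −log10 p together fix the summit's fragment count and background, with whole-number counts at 100% of peaks (within 0.001 in −log10 p), a step tested on simulated data. The lowest background gave the genome-wide coverage. No spike-in scaling was applied. Peaks were assigned by centre, using all GENCODE 44 start sites on chromosomes 1 to 22, X and Y, and a peak between 2 genes counted for both. Canonical start sites were MANE Select or Ensembl canonical. All 15345 RefSeq promoters compared were identical to hg38.

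Members and gene lists were chosen with earlier results of these data known. Values were to be given for the 5 highest and 5 lowest WDR5 −log10 q with DMSO and for members lacking a WDR5 promoter peak, having SS18::SSX or gaining a peak with MS67, and up to 3 genes of the highest value were named from each other list. A gene under this rule is not reported. Alternatives changed the start sites, window, threshold, overlap rule, merging and definition of a kept peak. Software was Python 3.11.15 with matplotlib 3.10.9, pandas 2.3.3, scipy 1.17.1 and numpy 2.4.6.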

Additional observations from a re-analysis of the deposited data

How the results depend on the processing

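The counts moved most with the peak threshold, and the shares over all genes moved with them. At −log10 q above 5, replication genes with WDR5 within 2 kb numbered 18 with DMSO and 4 with MS67 (against 38.9% and 10.5% of all genes), those with a WDR5 promoter peak with MS67 numbered 3 (6.74%), and those with SS18::SSX at the promoter (3.02%) or within 2 kb (5.84%) with DMSO and those with both targets (1.4%) numbered 1 each. The share that kept a WDR5 promoter peak was then 23.1% (17.2%), and 0 genes had one with MS67 only (3.52%). At the stricter standard of the study (−log10 q above 3 and fold above 6 in WDR5 lists or 3 in SS18::SSX lists), WDR5 was left at 4 promoters with DMSO and 3 with MS67 (11.7% and 7.39%), and within 2 kb of 8 and 5 genes (19.8% and 11.6%). SS18::SSX was left at 5 promoters and within 2 kb of 6 genes with DMSO (7.76% and 13.8%), both targets at 2 promoters (1.6%), and WDR5 with MS67 only at 2 (5.35%). With the canonical start site alone, WDR5 was at 12 promoters with DMSO and 9 with MS67 (31.2% and 18.2%), and at 5 with MS67 only (8.6%). Counting a gene as lacking WDR5 with DMSO only if none lay within 2 kb left 6 of 10 with MS67 only (5.66%). The other 68 of 88 recomputed values stayed within 1.5 times the count or median, or within the interval of the share. The cause of each shift was not tested beyond the fewer peaks or start sites each rule keeps. The alternatives for genes with WDR5 with MS67 only were chosen after seeing the data. No paired analysis was possible because each condition had 1 library. Summits of 4 to 13 fragments with MS67 limit what can be called.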

Other observations

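Other genes of the replication pathway were scored in the same way. The list held 48 genes (E2F and RB genes, firing and fork factors, polymerase subunits, clamp regulators, primer removal, nucleotide supply and chromatin assembly). WDR5 was at 33 promoters with DMSO (68.8%, against 43.0% of all genes) and 21 with MS67 (43.8%, against 27.7%). Of the 33, 20 kept it (60.6%, 42.1 to 77.1, exact Clopper-Pearson, against 49.9% of all genes). Of the 15 without one with DMSO, 1 (6.67%, 0.169 to 31.9) had one with MS67, against 10.9% of all genes. Within 2 kb it was 3 of 7 (42.9%, 9.9 to 81.6), against 9.0%. The highest WDR5 −log10 q with DMSO were at DONSON (11.5, and 5.96 with MS67), MCMBP (10.2 and 3.62) and RECQL4 (9.44 and 4.44). SS18::SSX was at 4 of the 48 promoters with DMSO (8.33%, against 13.4% of all genes) and 0 with MS67 (against 0.724%). These shares rest on 1 library per condition and the difference between the lists was not tested.

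Among 25 mitotic genes, WDR5 was at 14 promoters with DMSO (56.0%, against 43.0% of all genes). Of the 14, 7 kept it, against 49.9% of all genes. Of the other 11, 3 (27.3%, 6.02 to 61.0) had it with MS67 only, against 10.9% of all genes. BUB1 (8.32 and 3.35), TTK (7.22 and 4.11) and CCNB2 (6.43, none with MS67) had the highest values. SS18::SSX was at 7 of the 25 promoters with DMSO (28.0%, against 13.4% of all genes). Among 79 ribosomal protein genes, WDR5 was at 28 promoters with DMSO (35.4%, against 43.0% of all genes) and 27 with MS67 (34.2%, against 27.7%). Of the 28, 15 kept it (53.6%, against 49.9%), and 12 of the other 51 (23.5%, against 10.9%) had it with MS67 only. RPL10A had a WDR5 −log10 q of 11.2 with DMSO and 3.29 with MS67, and RPS20 had 7.91 with DMSO and none with MS67. Over 37 ribosomal protein genes, the strongest WDR5 peak within 2 kb of the canonical start had a median position of −460 bp with DMSO, upstream. Over 29 replication genes it lay at 365 bp, downstream.

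Few peaks lay inside the replication genes away from their starts. Beyond 2 kb of any start site, the 40 genes held 2 WDR5 peaks with DMSO (GINS1 and GINS3) and 2 SS18::SSX peaks (ORC5 and POLD1), and 0 of either with MS67. This was 0.91 peaks per Mb for each target with DMSO, against 6.28 for WDR5 and 3.09 for SS18::SSX over all genes. By genes, it was 2 of 40 for each target, against 18.1% of all genes for WDR5 and 7.69% for SS18::SSX. With MS67, all genes had 1.87 peaks per Mb for WDR5 (8.45% of genes) and 0.227 for SS18::SSX (0.948%). With so few peaks, the differences were not tested.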
